A study of Mus musculus with 6 samples.

Results

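The subject is the mRNA of the potassium, sodium and calcium channel families in the mouse heart, that is, the pore-forming subunits and their accessory partners. Members were genes whose symbol starts with Kcn, with Scn and a number, with Cacna1 or Cacna2d, or with Cacnb and a number. Each gene was read from its probe set of highest mean signal, and it was a member if that mean was at least 50 over the 6 arrays. Members were thus chosen by the mean measured signal, which is given below as a description and supports nothing. Of the 109 such genes analysed, 41 were members and 68 lay below the level, among 18193 genes with a probe set of a single symbol and 11327 genes tested. There were 29 potassium, 3 sodium and 9 calcium channel genes. The potassium genes included 11 of the pore-forming families of voltage-gated (Kv) channels, modifier subunits such as Kcnv2 among them, and 5 accessory Kv subunits. The others were 5 inward rectifiers, 3 tandem-pore-domain channels, 4 genes of calcium- or sodium-activated channels, and Kcnq1ot1, a long non-coding RNA that arises within Kcnq1. The calcium genes were 4 alpha1, 2 alpha2delta and 3 beta subunits, and the sodium genes 1 alpha and 2 beta subunits.

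Hearts of male mice aged 2 months with a B6 strain background were studied on Affymetrix arrays, with 2 arrays in each of 3 groups. The RKIP-transgenic line carried RKIP, a protein that restrains RAF kinase and a kinase of G-protein-coupled receptors, behind the alpha-MHC promoter, which is active in cardiomyocytes. The GRK-Inh-transgenic line made a peptide in the myocardium that inhibits the kinases of G-protein-coupled receptors (GRK), and wild-type B6 mice were the controls. Separate animals are not stated in the labels for the arrays of a group, and the p-values rest on the spread between arrays, some or all of which may be technical.

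The cardiac action potential begins with sodium entry through voltage-gated sodium channels, is held by calcium entry, and ends with potassium leaving the cell through several currents in turn. In the mouse ventricle the fast transient outward current (pores from Kcnd2 and Kcnd3, with the calcium-binding partner Kcnip2) and the ultrarapid current (Kcna5) carry much of repolarisation. The rapid (Kcnh2) and slow (Kcnq1 with Kcne1) delayed rectifiers carry more of it in larger mammals. Inward rectifiers set the resting potential, and accessory subunits alter the gating, the amount or the location of the pores at the membrane.

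The RefSeq table of promoters (GRCm38.p6) held 27 of the 41 members, and the promoters of 4 called genes are shown here as examples of the patterns described below, chosen after their values were seen. Scn4b was higher in both lines than in the controls, Kcna5 and Kcnh2 changed in opposite directions in the GRK-Inh hearts, and Kcnd3 was higher in the RKIP-labelled hearts. Each line gives the 150 bases before the annotated start, 5′ to 3′ on the gene's strand, and capitals mark the motif matches.
Scn4b, chr9:45138474-45138623, plus strand: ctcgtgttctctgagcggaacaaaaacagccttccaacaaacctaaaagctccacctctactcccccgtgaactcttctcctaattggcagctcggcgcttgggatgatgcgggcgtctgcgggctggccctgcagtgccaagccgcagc
Kcna5, chr6:126535556-126535705, minus strand: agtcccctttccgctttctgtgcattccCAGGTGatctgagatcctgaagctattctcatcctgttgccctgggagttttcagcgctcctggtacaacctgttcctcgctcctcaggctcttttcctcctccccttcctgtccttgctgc
Kcnd3, chr3:105451740-105451889, plus strand: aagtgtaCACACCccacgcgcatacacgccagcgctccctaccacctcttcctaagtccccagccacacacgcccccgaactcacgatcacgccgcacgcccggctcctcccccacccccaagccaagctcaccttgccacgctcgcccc
Kcnh2, chr5:24329592-24329741, minus strand: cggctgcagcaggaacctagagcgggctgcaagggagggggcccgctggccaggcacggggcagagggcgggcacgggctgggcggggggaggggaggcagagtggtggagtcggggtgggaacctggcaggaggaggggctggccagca
The motifs searched on both strands were the E-box CANNTG, the NKX2-5 site TNAAGTG, the GATA site AGATAA, the T-box site GGTGTG, the IRX site ACANNTGT and the CRE half-site TGACG. The E-box reads the same on both strands, and every match to the IRX site contains one. Kcna5 held 1 E-box, whose first base lies 122 bases before the start, and 47.7% of the 32851 promoter windows of this length held such a match. Kcnd3 held 1 T-box match, which begins 143 bases before the start, and 10.3% of all windows held one. Neither Scn4b nor Kcnh2 held a match to any of the motifs, whose other shares over all windows were 5.86% (NKX2-5), 5.65% (GATA), 3.48% (IRX) and 13.3% (CRE half-site). The windows had a GC content of 58.7% in Scn4b, 54.7% in Kcna5, 67.3% in Kcnd3 and 75.3% in Kcnh2. A match in letters is a description and not a binding site.

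The heart label was checked on fixed markers of working cardiomyocytes, and all 8 with a probe set were bright. Myh6, the adult cardiac myosin, gave signals of 35906 to 39466 on the 6 arrays, and the summed signal of the list was 216614 to 229698. Pebp1, the mouse gene of RKIP, was not higher in the RKIP-transgenic hearts: its brighter probe set gave 8766 to 9296 over all arrays (log2 fold change 0.02 ± 0.04, SE, adjusted p = 0.866). Whether these probes see the transgene was not tested, and the group is called RKIP-labelled for that reason. The ratio of 3′ to 5′ actin control signal was 2.92 to 3.03 on the arrays of the transgenic lines and 3.25 and 3.11 on the control arrays, and its part in the results was not tested. The log2 difference between arrays of a group had an SD of 0.25 (RKIP-labelled), 0.28 (GRK-Inh) and 0.21 (control) over the 41 members, beside 0.21 in each group over all genes tested.

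Signals of the 41 members ran from a mean of 52.6 to 3536, with a median of 225. A signal depends on the probes, so members are compared with themselves across groups and not with each other. The 5 highest means belonged to Cacna2d1 (3536), Kcnj3 (2125), Kcnd2 (1660.1), Kcnip2 (1167) and Kcnk3 (1069). Just above the level of 50 lay Kcnmb2 (52.6), Cacna1a (53.3) and Cacnb4 (53.4), and just below it Kcna4 (49.7), Scn2b (48.1) and Kcnj6 (47.1). The lowest family gene had a mean of 3.33. Of the 28 genes taken here as core channel genes of muscle, 21 were members, and 7 fell below the level and were not tested. Those were Scn2b, Cacna1d (44.6), the Kv pore Kcnc1 (35.6), the large-conductance potassium channel Kcnma1 (34.3) with its partner Kcnmb1 (23.4), the tandem-pore-domain channel Kcnk1 (19.8) and the inward rectifier Kcnj2 (5.40). A dim probe set does not show that the RNA is absent. Of the members, 36 had a mean of at least 50 in every group. A further 5 (Scn3b, Cacnb1, Cacnb4, Cacna1a and Kcnmb2) passed with a lower mean in at least 1 group. Their passing is tied to the groups in which they are high, and they stay in the counts of members below.

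**Figure D1:**
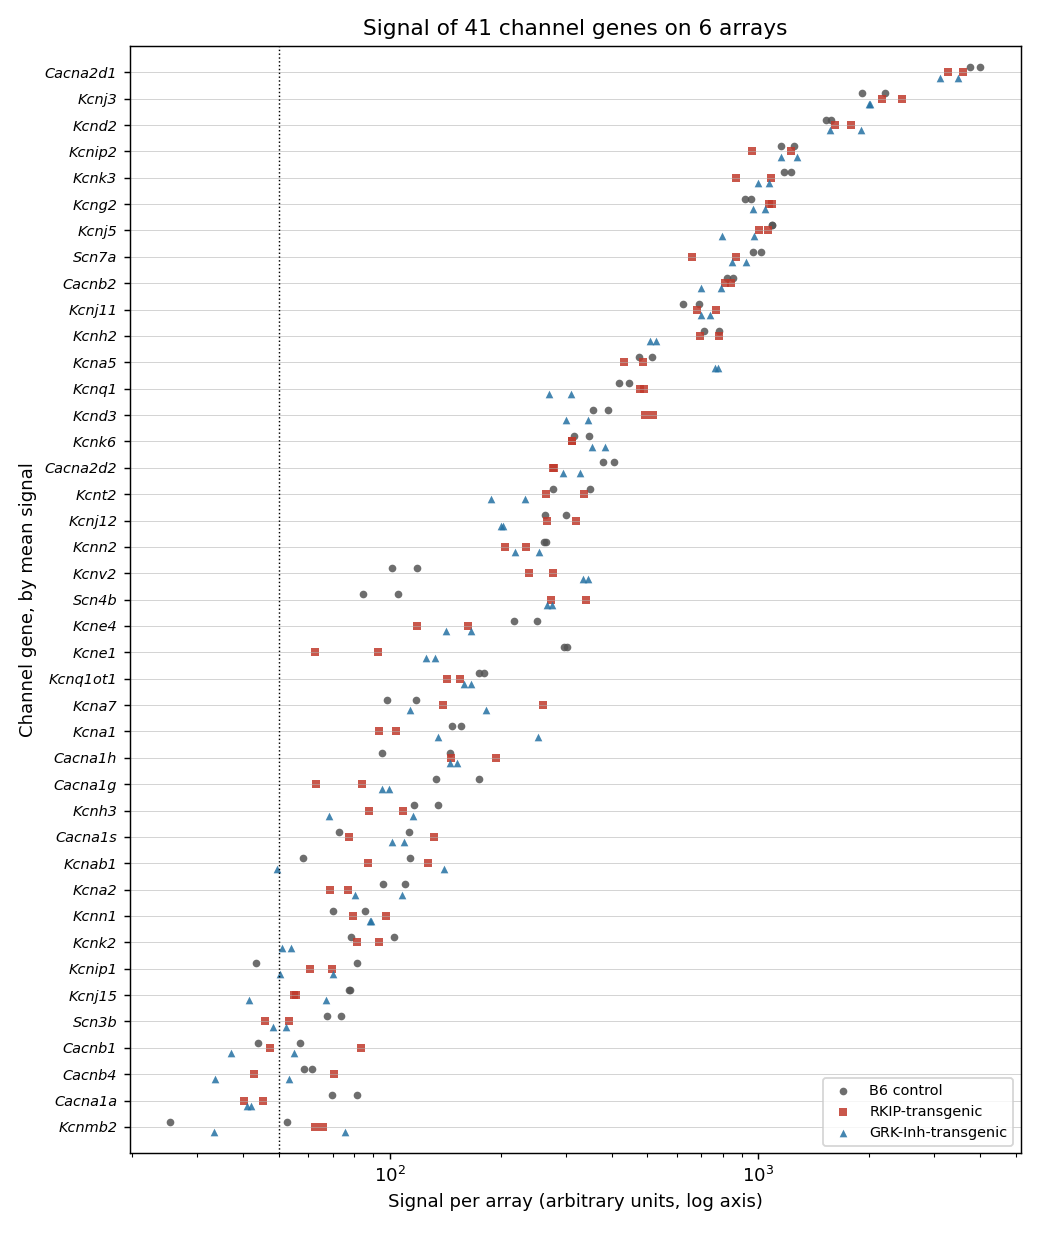
Signal of each of the 41 channel genes on every array (log axis, arbitrary units), with 2 arrays for each group and genes ordered by mean signal; the dotted line is the level of 50. Kcne1, Kcnv2 and Scn4b show control arrays set apart from all arrays of both lines, while for most genes the groups lie close together.

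The comparison of RKIP-labelled with control hearts asks which channel transcripts go with the RKIP transgene. Scn4b, Kcnv2 and Kcnd3 rose, and Kcne1, Cacna1g, Kcne4 and Cacna2d2 fell. These 7 genes are 17.1% of the 41 members, beside 10.8% of all genes tested, a share for which no test of the difference was made. By direction, 3 members rose (7.32%, beside 5.29% of all genes) and 4 fell (9.76%, beside 5.51%), and 2 of the 7 changed at least 2-fold on the log2(signal + 50) scale, or 4 of them in mean signal (Kcne1, Scn4b, Kcnv2 and Cacna1g). With genes filtered at the 75th percentile of signal, 2 of the 18 members tested were called (11.1%), beside 18.8% of all genes. The median log2 fold change was -0.05 over the members and -0.02 over all genes, and the median size was 0.20 and 0.14. The arrays of the groups did not overlap for 26 members, 63.4% beside 53.3% of all genes. Of these, 9 were higher and 17 lower in the RKIP-labelled hearts, beside 24.2% and 29.1% of all genes. The lower ones include Cacna1a and Scn3b, with RKIP-labelled means under 50 (42.8 and 49.7). The higher ones include Kcnmb2, with a control mean of 39.0. Because the passing of these genes is tied to the groups in which they are high, they support no change. A log2 fold change above 0 was seen in 17 members (41.5%, beside 46.5%).

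Scn4b (gene ID 399548), a beta subunit that modifies the gating of sodium channels, gave 84.9 and 105 on the control arrays and 274 and 341 on the RKIP-labelled arrays. Both RKIP-labelled values lie above both control values, and the mean signals differ 3.24-fold. The log2 fold change was 1.30 ± 0.14 (SE, limma adjusted p = 0.000200). Kcnv2 (gene ID 240595), a modifier subunit that forms no channel alone but joins other Kv pores, gave 119 and 102 in control and 239 and 278 in RKIP-labelled hearts. Its groups do not overlap either, and the log2 fold change was 0.94 ± 0.13 (adjusted p = 0.000927).

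Kcne1 (gene ID 16509), the partner of Kcnq1 in the slow delayed rectifier, had the largest fall among the members. Its control arrays gave 297 and 303, close together, and the RKIP-labelled arrays 93.1 and 62.5. The mean signals differ 3.86-fold, and the log2 fold change was -1.46 ± 0.15 (adjusted p = 0.000173). The pore gene Kcnq1 itself gave 418 and 447 in control and 488 and 479 in RKIP-labelled hearts, a difference that did not pass (0.15 ± 0.10, adjusted p = 0.416).

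The other calls were closer to the threshold. Kcnd3 (gene ID 56543), a pore of the transient outward current, rose from 356 and 391 to 492 and 518 (0.39 ± 0.10, adjusted p = 0.0368). Cacna1g (gene ID 12291), a pore of T-type calcium channels, fell from 134 and 175 to 84.1 and 63.3 (-0.72 ± 0.17, adjusted p = 0.0217). Kcne4 (gene ID 57814), an accessory subunit that can inhibit Kcnq1 channels, fell from 218 and 251 to 163 and 119 (-0.58 ± 0.16, adjusted p = 0.0371). Cacna2d2 (gene ID 56808), an extracellular calcium channel subunit, fell from 379 and 405 to 279 and 278 (-0.43 ± 0.10, adjusted p = 0.0257). For none of these 4 genes do the arrays of the groups overlap. Each of these 4 calls was lost without at least 1 array: Kcnd3 and Cacna2d2 without any of the 4 arrays, Kcne4 without RKIP array 2 or either control array, and Cacna1g without RKIP array 2 or control array 2. With the mean of all its probe sets, dim ones included, the log2 fold change of Kcnd3 was 0.20 (adjusted p = 0.448) and that of Cacna2d2 -0.32 (adjusted p = 0.201). A fit with an array left out has 1 array in that group, and fewer of all genes tested were called there too. The lost calls are therefore not read as particular to the channel genes.

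**Figure D2:**
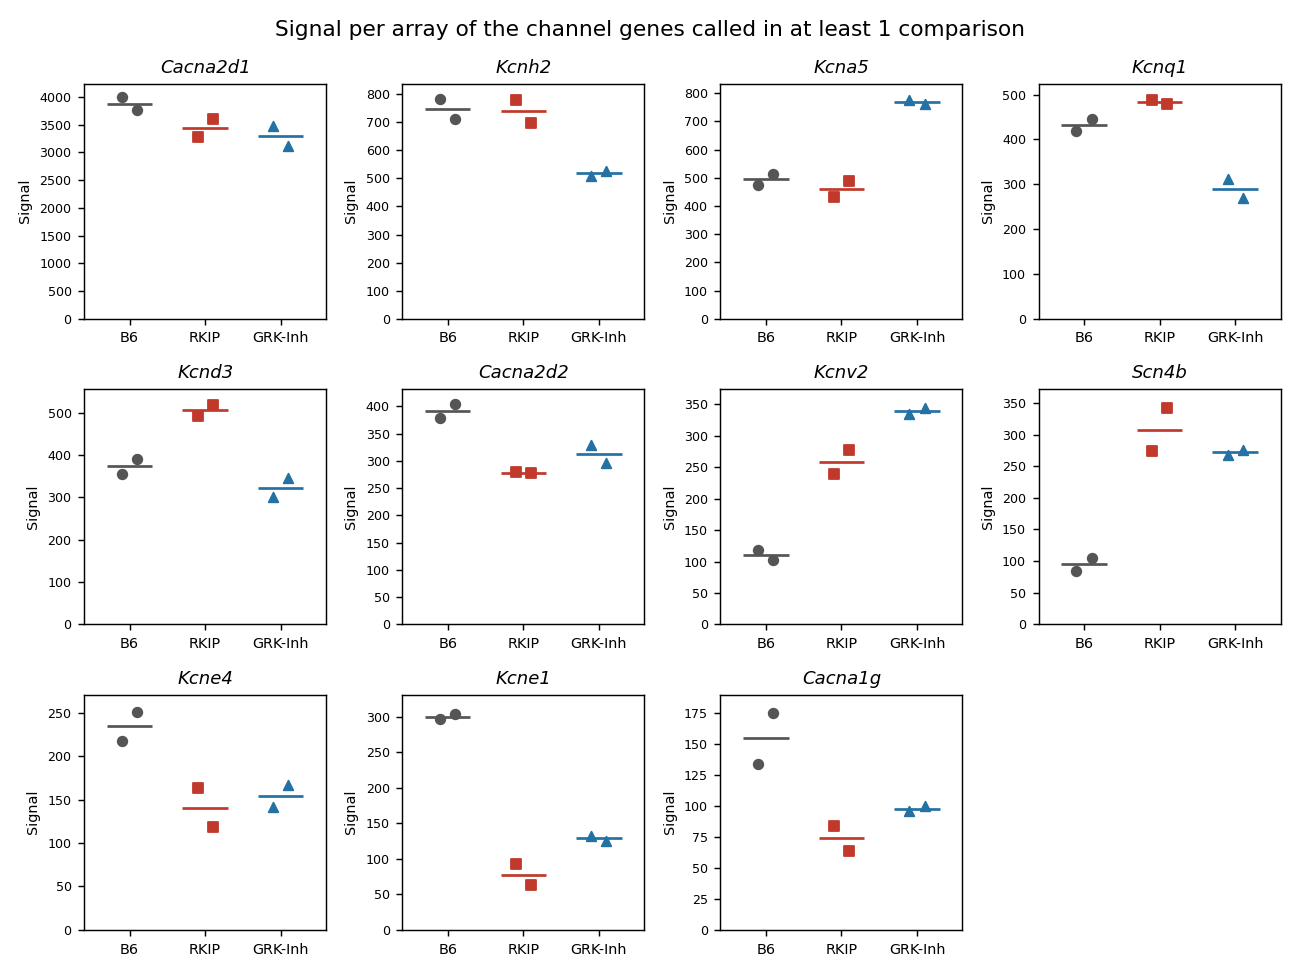
Signal (arbitrary units, axes from 0) of the 11 channel genes called in at least 1 comparison, with a point for each array and a line at the mean of the 2 arrays of a group. Scn4b and Kcnv2 sit above the control in both lines and Kcne1 below it, whereas Kcna5, Kcnh2 and Kcnq1 stand apart in the GRK-Inh hearts.

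The comparison of GRK-Inh with control hearts asks which channel transcripts go with the peptide inhibitor. Kcnv2, Scn4b and Kcna5 rose, and Kcne1, Kcnq1, Kcnh2 and Cacna2d1 fell. The 7 genes are 17.1% of the members, beside 13.0% of all genes tested. By direction, 3 rose (7.32%, beside 5.77%) and 4 fell (9.76%, beside 7.25%), and 2 changed at least 2-fold on the log2(signal + 50) scale, or 3 of them in mean signal (Kcnv2, Scn4b and Kcne1). The median log2 fold change was -0.13 over the members and -0.03 over all genes. The groups did not overlap for 30 members (73.2%, beside 56.8% of all genes). Of these, 22 were lower in the GRK-Inh hearts (53.7% of the members, beside 33.1% of all genes) and 8 were higher (19.5%, beside 23.7%). The 22 include Cacna1a and Cacnb4, with GRK-Inh means under 50 (41.5 and 43.5). Their passing is tied to the groups in which they are high, so they are no support for a fall. A log2 fold change above 0 was seen in 15 members (36.6%, beside 43.6%).

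Both delayed rectifier pores were lower and the ultrarapid pore higher in these hearts. Kcna5 (gene ID 16493) gave 475 and 515 on the control arrays and 777 and 760.3 on the GRK-Inh arrays. Its groups are well apart, at 1.55-fold in mean signal (log2 fold change 0.59 ± 0.09, adjusted p = 0.00162). Kcnh2 (gene ID 16511), the pore of the rapid delayed rectifier, fell from 784 and 709.8 to 509.5 and 526 (-0.49 ± 0.09, adjusted p = 0.00424). Kcnq1 (gene ID 16535) fell from 418 and 447 to 311 and 270.1 (-0.50 ± 0.10, adjusted p = 0.00748), a call that was lost without GRK-Inh array 2 or control array 2. Its partner Kcne1 was lower beside it, at 133 and 126 against 297 and 303 in the controls (-0.97 ± 0.15, adjusted p = 0.00190).

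Kcnv2 and Scn4b, called higher in the RKIP-labelled hearts, were called higher here too, against the same control arrays. Kcnv2 gave 334 and 344 (1.28 ± 0.13, adjusted p = 8.66e-05), a 3.08-fold difference in mean signal and the largest rise among the members. Scn4b gave 268 and 276 (1.15 ± 0.14, adjusted p = 0.000336). Because the 2 comparisons share their controls, an unusual control value would move both in the same direction. Cacna1g (95.4 and 99.7), Kcne4 (142 and 167) and Cacna2d2 (329 and 296) had lower arrays than the controls without passing, with adjusted p of 0.104, 0.0690 and 0.0993.

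Cacna2d1 (gene ID 12293), a major alpha2delta subunit of the heart, was called lower by its brightest probe set. It gave 3992 and 3759 in control and 3476 and 3112 in GRK-Inh hearts, a 1.18-fold difference (-0.23 ± 0.07, adjusted p = 0.0414). Its other probe sets did not bear the fall out. The next brightest gave a log2 fold change of 0.09 ± 0.08, the mean of all probe sets 0.08, and the adjusted p ran from 0.0295 to 0.587 over the alternatives. The call was also lost without GRK-Inh array 2 or either control array.

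The direct comparison of both lines asks where the channel transcripts of RKIP-labelled and GRK-Inh hearts differ, without use of the controls. All of the 4 genes called were Kv pores: Kcnq1, Kcnd3 and Kcnh2 were higher in the RKIP-labelled hearts and Kcna5 was lower. They are 9.76% of the members, beside 8.70% of all genes tested (3 higher, 7.32% beside 4.40%, and 1 lower, 2.44% beside 4.30%). The median log2 difference was 0.02 over the members and 0.02 over all genes. The lines did not overlap for 19 members (46.3%, beside 52.8%), with 10 higher in the RKIP-labelled hearts (24.4%, beside 29.7%) and 9 lower (22.0%, beside 23.2%), and 23 had a difference above 0 (56.1%, beside 54.7%).

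Kcna5 gave 433 and 487 in RKIP-labelled hearts, against 777 and 760.3 in GRK-Inh hearts, a log2 difference of -0.68 ± 0.09 (adjusted p = 0.00102). Kcnq1 gave 488 and 479 against 311 and 270.1 (0.65 ± 0.10, adjusted p = 0.00291), and Kcnd3 gave 492 and 518 against 299.9 and 345 (0.58 ± 0.10, adjusted p = 0.00639). Kcnh2 gave 780.1 and 697 against 509.5 and 526 (0.47 ± 0.09, adjusted p = 0.00804). The arrays of the lines do not overlap for any of these 4 genes. The calls of Kcnd3 and Kcnh2 were lost without GRK-Inh array 1, and that of Kcnh2 also without RKIP array 1. Fewer of all genes tested were called without either array too. With the mean of all its probe sets the difference of Kcnd3 was 0.27 (adjusted p = 0.317).

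For the 3 genes that changed against the control in both lines, a difference between the lines did not pass. The log2 difference (RKIP-labelled minus GRK-Inh) was 0.15 for Scn4b (95% interval -0.16 to 0.45, adjusted p = 0.591). It was -0.34 for Kcnv2 (-0.62 to -0.06, adjusted p = 0.136) and -0.50 for Kcne1 (-0.83 to -0.16, adjusted p = 0.0733). The arrays of the lines do not overlap for Kcnv2 and Kcne1, so these intervals do not show that the lines are alike.

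**Figure D3:**
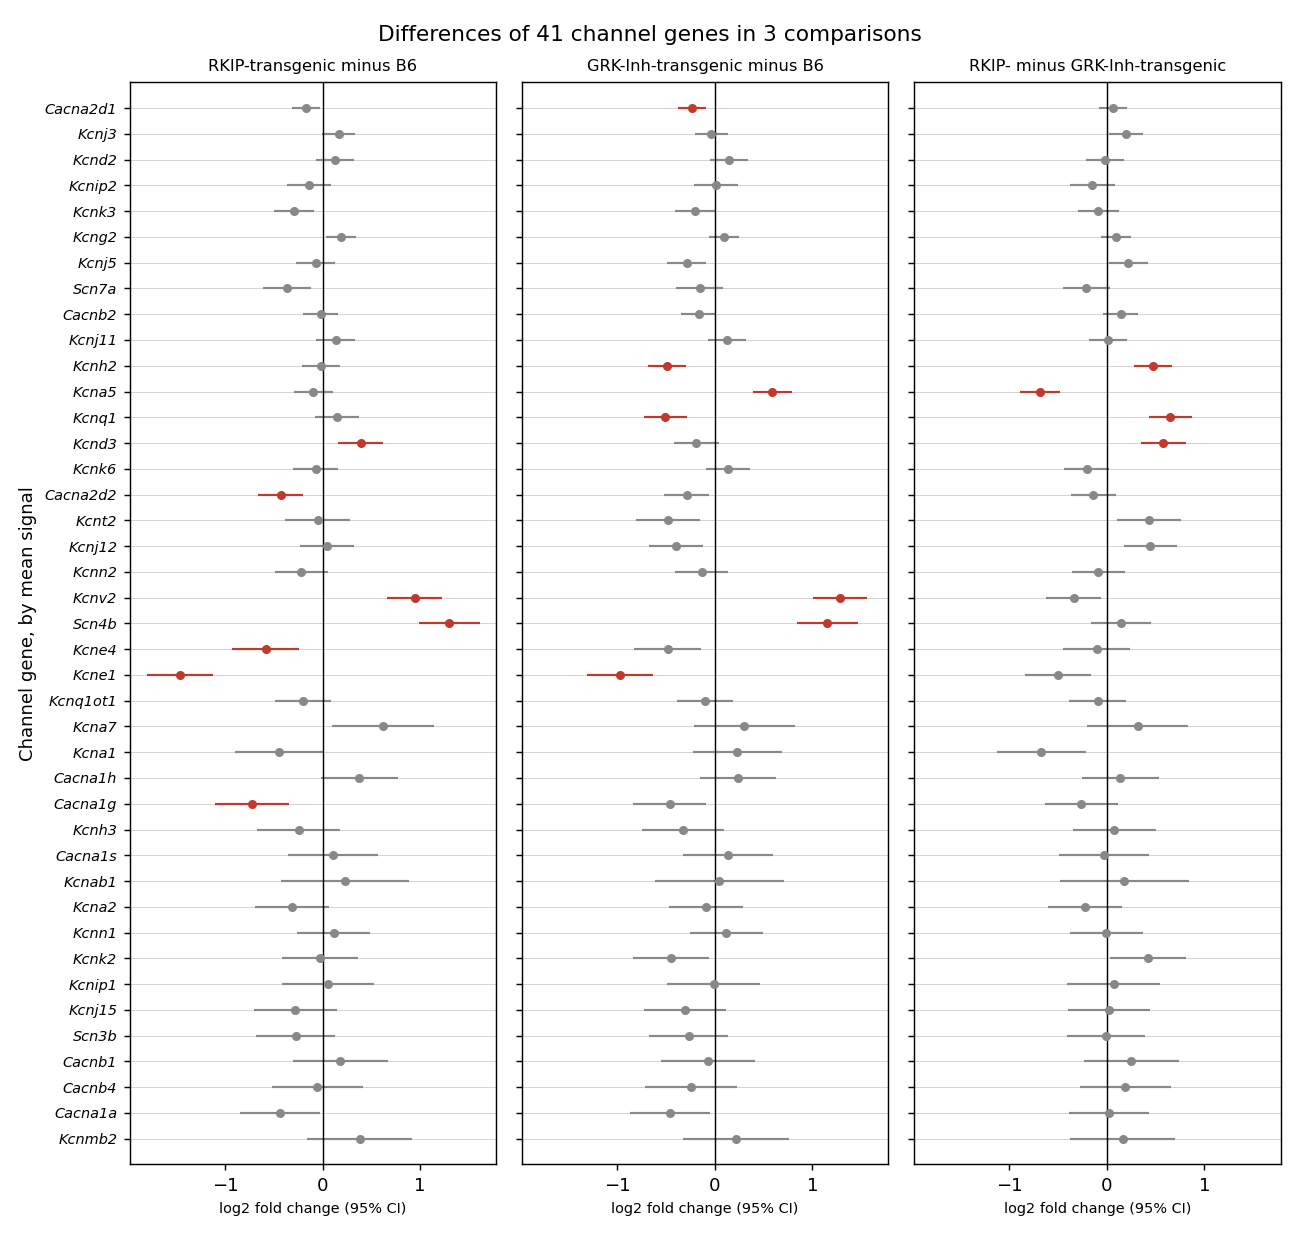
Log2 fold change with its 95% interval (not adjusted for the number of genes) of the 41 channel genes in the 3 comparisons, ordered by mean signal; red marks an adjusted p under 0.05 and grey the rest. Intervals widen for dimmer genes, and the third panel holds 4 called genes, all of them Kv pores.

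Beside Kcnd3, the transient outward current draws on Kcnd2 and Kcnip2. Kcnd2, the other pore, gave 1522 and 1578 in control, 1787 and 1614 in RKIP-labelled and 1562 and 1897 in GRK-Inh hearts. The probe set of highest signal did not pass in either line (0.13 ± 0.09, adjusted p = 0.409, and 0.15 ± 0.09, adjusted p = 0.308). When every probe set was tested for itself, a further Kcnd2 probe set gave 797 and 987 in control, 1184 and 1290.1 in RKIP-labelled and 1208 and 1236 in GRK-Inh hearts. It was called higher in both lines (0.46 ± 0.10, adjusted p = 0.0161, and 0.44 ± 0.10, adjusted p = 0.0144). The remaining bright one passed in the RKIP-labelled hearts against control (0.32 ± 0.08, adjusted p = 0.0452) and missed in the GRK-Inh hearts (0.30 ± 0.08, adjusted p = 0.0502). Kcnip2 overlapped in all comparisons, at 1149 and 1249 in control, 1223 and 962 in RKIP-labelled and 1269.6 and 1149 in GRK-Inh hearts. Its log2 fold changes were -0.14 (95% interval -0.36 to 0.09) and 0.01 (-0.22 to 0.24).

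**Figure D4:**
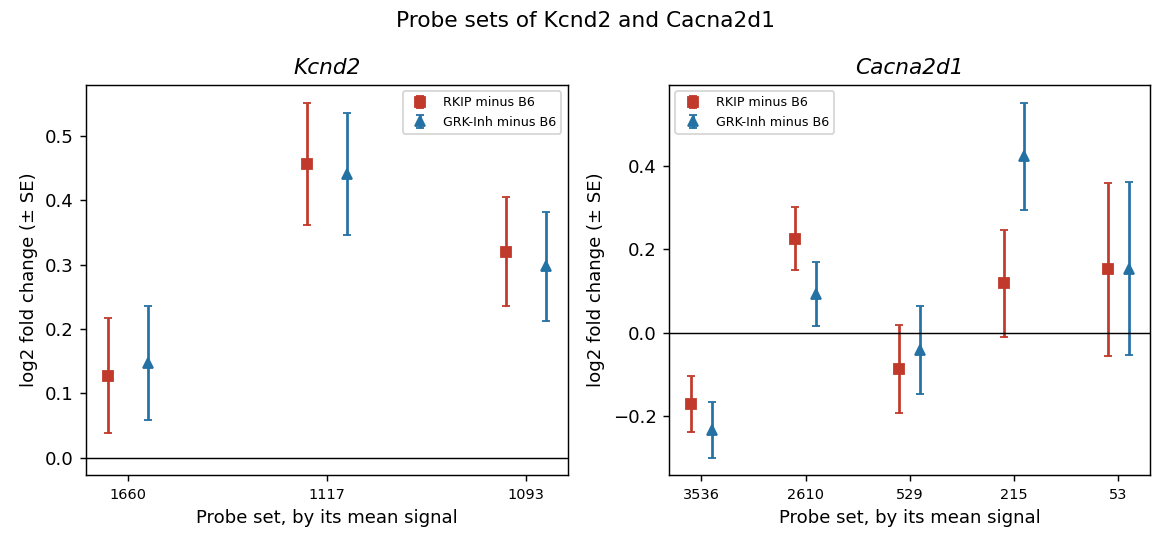
Log2 fold change against control (± SE) of each probe set of Kcnd2 and Cacna2d1 with a mean signal of at least 50, labelled by that signal. All 3 Kcnd2 probe sets lie above 0 in both lines, and those of Cacna2d1 lie on both sides of 0.

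In all, 15 members had more than 1 probe set at a mean of at least 50, and 25 further probe sets could be set beside the main ones. Of these, 2 were called in the RKIP-labelled hearts (both of Kcnd2) and 2 in the GRK-Inh hearts, 1 of Kcnd2 and 1 of Cacnb4, a calcium channel beta subunit, at 68.8 and 66.8 in control and 18.9 and 29.1 in GRK-Inh hearts (-0.67 ± 0.18, adjusted p = 0.0409). That Cacnb4 probe set had a mean of 50.6 over all arrays, so its passing the level of 50 is tied to the groups in which it is high. Its call in the GRK-Inh hearts is therefore no support for a fall. The main Cacnb4 probe set, at 53.3 and 33.7 against 61.4 and 58.5, did not pass (-0.24 ± 0.21, adjusted p = 0.505). It too had a GRK-Inh mean under the level (43.5). Of the 11 called members, 10 rest on a single probe set of that signal.

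Of the 5 inward rectifiers, 0 were called by limma in any comparison, and 0, 2 and 3 had an unadjusted p under 0.05 in RKIP-labelled against control, GRK-Inh against control and RKIP-labelled against GRK-Inh hearts. Kcnj3 and Kcnj5 form the acetylcholine-gated channel, which opens when receptors release G-protein beta-gamma subunits. Kcnj3 gave 1912 and 2204 in control, 2171 and 2449.9 in RKIP-labelled and 1999 and 2012 in GRK-Inh hearts. Its log2 fold changes were 0.16 (-0.01 to 0.33) and -0.03 (-0.20 to 0.14). Kcnj5 gave 1088 and 1086 in control, 1002 and 1064 in RKIP-labelled and 797 and 974 in GRK-Inh hearts, with all 4 transgenic arrays below the controls. In the GRK-Inh hearts its difference missed the threshold (-0.29 ± 0.09, adjusted p = 0.0612), and it passed without GRK-Inh array 2. Kcnj11, the pore of the ATP-sensitive channel, gave 625 and 688 in control, 769 and 682 in RKIP-labelled and 697 and 741 in GRK-Inh hearts. Its log2 fold changes were 0.13 (-0.06 to 0.33) and 0.12 (-0.07 to 0.32). Kcnj12, a classical inward rectifier, gave 301 and 263 in control, 321 and 267 in RKIP-labelled and 200.2 and 203 in GRK-Inh hearts. Both GRK-Inh arrays lie below the other 4, with adjusted p of 0.0600 against control and 0.0509 against the RKIP-labelled hearts.

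Of the 3 tandem-pore-domain channels, which carry background potassium current, 0 were called by limma, and 1 had an unadjusted p under 0.05 in each comparison. Kcnk3, an acid-sensitive leak channel, gave 1223 and 1172 in control, 1079 and 871 in RKIP-labelled and 998 and 1070.4 in GRK-Inh hearts. All 4 transgenic arrays are lower than the controls, with log2 fold changes of -0.29 (-0.50 to -0.08, adjusted p = 0.0781) and -0.20 (-0.41 to 0.00, adjusted p = 0.187). The RKIP-labelled difference passed without RKIP array 1. The dimmer Kcnk3 probe sets lay on both sides of 0 in RKIP-labelled against control hearts (0.18 ± 0.19 and -0.29 ± 0.22), and neither passed. Kcnk2, a stretch-sensitive leak channel, was at 50.9 and 53.9 in GRK-Inh hearts, below the 78.3 and 102 of the controls and the 81.7 and 93.6 of the RKIP-labelled hearts (adjusted p = 0.123 against control). Kcnk6 lay between 313 and 383 on all arrays. Of the 4 genes of activated potassium channels 0 were called, and 0, 1 and 1 had an unadjusted p under 0.05 in the 3 comparisons. The sodium-activated pore Kcnt2 was lowest in GRK-Inh hearts, at 188 and 232 against 350.1 and 277 in control (-0.48 ± 0.15, adjusted p = 0.0591). The small-conductance channel Kcnn2 gave 266 and 262 in control, 206 and 234 in RKIP-labelled and 219 and 254 in GRK-Inh hearts without passing (adjusted p = 0.306 and 0.534).

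The sodium-sensing channel gene Scn7a gave 1013 and 966 in control, 661 and 868 in RKIP-labelled and 849 and 923 in GRK-Inh hearts. Its arrays do not overlap between either line and the controls, and neither difference passed (-0.36 ± 0.11, adjusted p = 0.0600, and -0.15 ± 0.11, adjusted p = 0.404). Without RKIP array 2 the former passed. Scn3b, another sodium channel beta subunit, lay near the level. It gave 67.4 and 73.7 in control and 46.0 to 53.4 on the transgenic arrays (adjusted p = 0.392 and 0.381). Its RKIP-labelled mean was under 50 (49.7), so its passing is tied to the groups in which it is high. Its lower values are therefore no support for a fall. Cacnb2, the main beta subunit of cardiac calcium channels, gave 854 and 824 in control, 843 and 809 in RKIP-labelled and 792 and 699 in GRK-Inh hearts. Its log2 fold changes were -0.02 (-0.20 to 0.16) and -0.16 (-0.34 to 0.02). Cacna1h, the other T-type pore of the members, gave 95.1 and 145 in control, 194 and 146 in RKIP-labelled and 146 and 152 in GRK-Inh hearts. All 4 transgenic arrays lie above the controls, but the lowest (145.8) barely exceeds the higher control (145.5). The controls themselves lie much further apart, and neither difference passed (adjusted p = 0.214 and 0.417). A direction opposite to that of Cacna1g is therefore not read from these values. Kcnab1, a cytoplasmic Kv partner, gave 113 and 58.3 in control, 127 and 87.1 in RKIP-labelled and 49.4 and 140.1 in GRK-Inh hearts, and the spread within groups left no difference to be read. The 30 members called in no comparison had log2 fold changes of -0.44 to 0.62 in RKIP-labelled and -0.48 to 0.30 in GRK-Inh hearts. The highest of these, Kcna7, a Kv pore, gave 260.5 and 139 in RKIP-labelled hearts, 114 and 182 in GRK-Inh hearts and 98.5 and 118 in control.

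Genes that work beside the channels were taken from lists of pacemaker channels, connexins, the sodium pump, channel scaffolds, other ion channels and patterning transcription factors. Of 48 with a probe set, 39 were tested. In RKIP-labelled hearts 1 rose (2.56%, beside 5.29% of all genes) and 2 fell (5.13%, beside 5.51%), with a median log2 fold change of -0.05. In GRK-Inh hearts 2 rose (5.13%, beside 5.77%) and 9 fell (23.1%, beside 7.25%), with a median of -0.14, beside -0.03 over all genes. Clcn3, a chloride-proton exchanger, rose in both lines, from 1858 and 1872 to 2530.3 and 2451 in RKIP-labelled and to 2447 and 2124 in GRK-Inh hearts (0.41, adjusted p = 0.00356, and 0.28, adjusted p = 0.0193). The connexin gene Gjc1 fell in both (-0.34, adjusted p = 0.0380, and -0.52, adjusted p = 0.00353), as did Rrad, a small GTPase that restrains calcium channels (-0.25, adjusted p = 0.0420, and -0.35, adjusted p = 0.00643). In the GRK-Inh hearts the main ventricular connexin Gja1 fell from 20449.5 and 18356 to 15028 and 16317 (-0.31, adjusted p = 0.00405). Fgf13, a binding partner of sodium channels, fell from 4544 and 4535 to 3638 and 3616 there (-0.32, adjusted p = 0.000763). Abcc9, a sulphonylurea receptor of ATP-sensitive channels, fell too (-0.23, adjusted p = 0.00310), as did the sodium pump subunit Atp1b1 (-0.17, adjusted p = 0.0292) and the chloride channel Ano1 (-0.61, adjusted p = 0.0210). Lrrc8a, of the volume-regulated anion channel, rose (0.26, adjusted p = 0.0385).

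Among the patterning factors, Irx3 (-0.33, adjusted p = 0.00200) and Mef2c (-0.29, adjusted p = 0.0183) fell in the GRK-Inh hearts. In the RKIP-labelled hearts limma called 0 of 9, with 3 at an unadjusted p under 0.05. Between the lines 6 partner genes were higher (15.4%, beside 4.40% of all genes) and 1 lower (2.56%, beside 4.30%) in the RKIP-labelled hearts. The pacemaker channel gene Hcn2 gave 187 and 196 in RKIP-labelled and 114 and 114 in GRK-Inh hearts (0.56, adjusted p = 0.0321), and Irx4, a ventricular factor, 340.4 and 290.1 against 181 and 175 (0.68, adjusted p = 0.00688). Mef2c (0.30, adjusted p = 0.0249), Gja1 (0.27, adjusted p = 0.0127), Fgf13 (0.22, adjusted p = 0.0111) and Abcc9 (0.20, adjusted p = 0.0107) were also higher there, and Lrrc8a was lower (-0.41, adjusted p = 0.00577).

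Markers of other cells were measured beside these genes, and in bulk heart RNA fewer cells of a type and less RNA per cell cannot be told apart. The counts cover listed markers with a probe set of a single symbol, which leaves out Hcn4 of the conduction list, among others. Of 8 working cardiomyocyte markers, Actc1 alone was called, lower in RKIP-labelled hearts (-0.12, adjusted p = 0.0317). Of 7 fibroblast markers, 5 fell in RKIP-labelled and 6 in GRK-Inh hearts. Their summed signal was 39761 to 42217 in control, 31265 to 31421 in RKIP-labelled and 28971 to 29286 in GRK-Inh hearts. The collagen genes Col1a1 (-1.12 in RKIP-labelled and -1.13 in GRK-Inh hearts) and Col3a1 (-1.03 and -1.01) fell most in both lines. Fbln1 (-0.58 and -0.57), Pdgfra (-0.38 and -0.39) and Lum (-0.22 and -0.74) also fell in both, and Dcn fell in GRK-Inh hearts (-0.17). Lum was higher in RKIP-labelled than in GRK-Inh hearts (0.52). Of 5 smooth muscle markers, 3 fell in RKIP-labelled hearts (Acta2 -0.50, Myh11 -0.46, Tagln -0.39) and 1 in GRK-Inh hearts (Acta2, -0.19), and Acta2 and Tagln were lower in the RKIP-labelled than in the GRK-Inh hearts (-0.31 and -0.34). Their sum was 8666 to 9053 in control, 6366 to 6450.4 in RKIP-labelled and 7787 to 8067 in GRK-Inh hearts.

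Atrial markers summed to 70679 to 71355 in control, 64027 to 64169 in RKIP-labelled and 68772 to 69184 in GRK-Inh hearts. Of the 5, Myl7, the atrial light chain, fell in RKIP-labelled hearts (-0.35, adjusted p = 7.25e-05) with Sln (-0.14), and Bmp10, of the right atrium, fell in both lines (-0.85, adjusted p = 0.00549, and -1.43, adjusted p = 0.000145). Between the lines Myl7 was lower (-0.36) and Bmp10 higher (0.58) in the RKIP-labelled hearts. Of 6 endothelial markers, Tek (-0.42) and Kdr (-0.27) fell in RKIP-labelled hearts, Tek fell (-0.39) and Flt1 rose (0.26) in GRK-Inh hearts, and Kdr, Flt1 and Pecam1 were lower in the RKIP-labelled than in the GRK-Inh hearts. Their sum was 5734 to 5870.3 in control, 4938 to 4972 in RKIP-labelled and 5873 to 6093 in GRK-Inh hearts. Of 5 macrophage markers, Csf1r fell in both lines (-0.22 and -0.46) and Adgre1 in GRK-Inh hearts (-0.29), and Csf1r was higher in RKIP-labelled than in GRK-Inh hearts (0.24). Their sum was 6980 to 7292 in control, 6170 to 6371 in RKIP-labelled and 5482 to 5550 in GRK-Inh hearts.

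Of 4 lymphocyte markers Cd3e and Cd79a were below 50. Ighm, an antibody heavy chain, gave 188 and 156 in control, 109 and 103 in RKIP-labelled and 848 and 837 in GRK-Inh hearts, and was called in all 3 comparisons, which carries the list's sum (583 to 599, 508 to 518 and 1264 to 1318). Of 4 adipocyte markers Cidec and Lep were below 50, and Adipoq (-1.37) and Car3 (-1.62) fell in RKIP-labelled hearts and were lower there than in GRK-Inh hearts. Their sum was 3577 to 3757 in control, 1124 to 1193 in RKIP-labelled and 3543 to 4142 in GRK-Inh hearts.

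Schwann cell and glia markers (3 tested, summed signal 209 to 245 in control, 218 to 256 in RKIP-labelled and 220 to 237 in GRK-Inh hearts) had 0 calls by limma and 0 at an unadjusted p under 0.05 in each comparison. The same counts held for neuron markers (2 tested, with Tubb3, Prph and Th below 50) and conduction markers (3 tested, with Isl1 below 50). Neuron markers summed to 274 to 314 in control, 296 to 374 in RKIP-labelled and 309 to 382 in GRK-Inh hearts, and conduction markers to 389 to 454, 414 to 491 and 472 to 507. Of 7 skeletal muscle markers, Tnnt3, Myh4, Myh1, Actn3 and Myod1 were below 50. The other two, Tnni2 and Mylpf, were not called by limma and 0, 1 and 1 had an unadjusted p under 0.05, with a list sum of 304 to 307 in control, 232 to 329 in RKIP-labelled and 162 to 200.2 in GRK-Inh hearts. The part of these cell types in the changes of Kcne1, Kcne4, Cacna1g, Cacna2d2, Kcna5 and the other channel genes was not tested.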

How the data were processed

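Heart RNA was hybridised to 6 arrays, and the authors deposited one linear signal intensity per probe set and array, computed and scaled with GCOS (version not given in the sources used here) per the submitters' processing notes. The trimmed mean (2% at each end) was 300.002 on every array, and median signals were 50.4 to 55.2. Of 45101 probe sets, 34945 had a single gene symbol in the array annotation. The brightest probe set represented each gene, and the 11327 genes with a mean signal of at least 50 were tested on log2(signal + 50), so that fold changes of dim genes are understated. A single limma 3.58.1 model (R 4.3.3) over 6 arrays, with 3 residual degrees of freedom and a variance trend, gave two-sided p-values. They were adjusted by Benjamini-Hochberg over all genes tested, with a call at under 0.05. The number of arrays limits the precision: the median SE was 0.12 over all genes tested and 0.14 over the members. In simulated RKIP-labelled against control data on 11327 genes, 73.1% of changes of 0.5 and 100% of changes of 1 were called. Those rates rest on 67 changed genes at each size and were not computed for the members alone. The members were dimmer, with a median of mean signals of 225 beside 361 over all genes tested. The rates therefore do not give a detection rate for the channel genes. The members and lists were chosen with earlier results of these data known. Genes were named by rule. Every called member and listed core gene is given with full values. The 5 highest members and the 3 genes on each side of the level are given with their mean. Members whose probe sets disagree are named. So are the called genes of each partner or marker list, at most 4 per list and comparison. The called fibroblast markers are an exception and are all named. Others are named beside small counts and were chosen after their values were seen. As set by the rule, 2 genes of these families are not reported here. Alternatives covered normalization, offset, filter, probe sets, variance, pairing, threshold and each array left out. Figures used Python 3.11.15 and matplotlib 3.10.9.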

Additional observations from a re-analysis of the deposited data

Results flagged for a closer look

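Kcnq1 and Kcnd3 stood out because both arrays of the RKIP-labelled group lay above the controls and both arrays of the GRK-Inh group below them, and the lines were called different. The log2 difference of RKIP-labelled minus GRK-Inh hearts was 0.65 ± 0.10 for Kcnq1 and 0.58 ± 0.10 for Kcnd3 (SE, limma adjusted p = 0.00291 and 0.00639). Against the controls, Kcnq1 was called in the GRK-Inh hearts and Kcnd3 in the RKIP-labelled hearts. Groups of 2 arrays are too small for a test of single outlying arrays.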

How the results depend on the processing

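Of 57 recounts of called members, 48 were within 1.5 times the reported count. RKIP-labelled against control hearts gave 7 called members (17.1%, beside 10.8% of all genes), 3 without a filter (7.32%, beside 4.63%), 2 of 18 with a filter at the 75th percentile (11.1%, beside 18.8%, so that the order of the shares turned), 3 with a variance without trend (7.32%, beside 2.38%), 3 at an adjusted p under 0.01 (7.32%, beside 4.62%), and 3 to 6 with an array left out. GRK-Inh against control hearts gave 7, 12 at an adjusted p under 0.10 (29.3%, beside 19.8%), and 5 to 7 with an array left out. RKIP-labelled against GRK-Inh hearts gave 4, 7 at an adjusted p under 0.10 (17.1%, beside 13.4%), and 2 to 5 with an array left out. The fall of Cacna2d1 in GRK-Inh hearts reversed to 0.079 with the mean of all its probe sets. The causes of these shifts were not tested, except that fewer members were tested under the stricter filter. Of 18 gene-level calls, 10 held under every alternative in which the gene was tested (Kcnv2, Scn4b and Kcne1 in both lines, Kcna5 in both comparisons that called it, Kcnh2 in GRK-Inh hearts and Kcnq1 between the lines), and 8 were lost under at least 1. Of 51 listed differences that did not pass, 8 passed under at least 1 alternative. The replicate numbers did not pair the arrays, since differences between replicates correlated at -0.032 to 0.027 between groups, and with the number as a block 6, 7 and 4 members were called. The replicate block ended the calls of Kcne4 in RKIP-labelled (adjusted p = 0.0533) and Cacna2d1 in GRK-Inh hearts (0.0518) and added Kcnj5 in GRK-Inh hearts (0.0488). An array left out leaves a lone sample in its group, which is assumed to vary like the others. With any array of the compared groups left out, calls over all genes tested fell as well. Lower member counts in those fits are therefore not read as particular to the channel genes.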
